A study of Mus musculus with 18 samples.

Results

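The genes described here are 10 genes of the cartilage extracellular matrix and its control, measured in mouse forepaws. They are the collagen genes Col2a1, Col9a1 and Col11a2, the proteoglycan gene Acan, the matrix protein genes Chad, Cilp2, Clec3a, Comp and Matn3, and the transcription factor gene Sox9. They were taken by symbol, all 10 were found among the 18585 genes of the table, and all 10 passed the filter on low values (at least 10 normalized counts in at least 4 libraries). RNA came from whole forepaws of C57BL/6 mice and was read by CEL-seq, which counts tags near the 3' end of each RNA. The 4 groups were Sema3b-/- mice with arthritis (5 libraries), Sema3b-/- control mice (4 libraries), WT mice with arthritis (5 libraries) and WT control mice (4 libraries). Sema3b encodes a secreted semaphorin, a guidance protein that binds neuropilin and plexin receptors. The labels give no age, no sex and no name for the arthritis model, and the allele behind Sema3b-/- is not described in the sources used here.

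Cartilage covers the ends of bones in a joint and forms the growth plates of young limbs, and its only resident cells are chondrocytes. They build a fibrillar network from type II and type XI collagen, with type IX collagen on the fibril surface, and fill it with aggrecan, a proteoglycan that holds water and lets the tissue bear load. Smaller proteins such as chondroadherin, COMP and the matrilins link the network to itself and to the cells. SOX9 is the transcription factor that switches on most of these genes in chondrocytes. Loss of aggrecan and type II collagen from the joint surface is a known feature of arthritis.

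Promoters are shown for the 4 genes lower in Sema3b-/- arthritis that have an entry in the RefSeq promoter table. Its build is GRCm38.p6, the assembly also called mm10. In all, 6 of the 10 genes had entries. Each line gives the 250 bases before the RefSeq start, on the strand of the gene, 5′ to 3′. Capitals mark the word of a TATA box (TATAAA) or of a SOX core (ACAAT or ACAAAG), all searched on both strands. The windows are chr11:94564797-94565046 (plus strand) for Chad, chr8:69887393-69887642 (minus strand) for Cilp2, chr17:34038888-34039137 (plus strand) for Col11a2 and chr1:24177360-24177609 (plus strand) for Col9a1.
Chad: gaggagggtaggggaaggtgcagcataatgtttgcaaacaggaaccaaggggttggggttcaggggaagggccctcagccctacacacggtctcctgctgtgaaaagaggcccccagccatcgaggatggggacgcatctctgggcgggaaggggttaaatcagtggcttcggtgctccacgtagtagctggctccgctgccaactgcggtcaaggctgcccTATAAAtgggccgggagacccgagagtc
Cilp2: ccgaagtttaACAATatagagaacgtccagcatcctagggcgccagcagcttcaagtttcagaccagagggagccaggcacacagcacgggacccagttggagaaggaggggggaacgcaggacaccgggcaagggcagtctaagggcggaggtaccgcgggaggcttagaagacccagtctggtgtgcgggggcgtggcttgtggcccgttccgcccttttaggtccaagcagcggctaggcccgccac
Col11a2: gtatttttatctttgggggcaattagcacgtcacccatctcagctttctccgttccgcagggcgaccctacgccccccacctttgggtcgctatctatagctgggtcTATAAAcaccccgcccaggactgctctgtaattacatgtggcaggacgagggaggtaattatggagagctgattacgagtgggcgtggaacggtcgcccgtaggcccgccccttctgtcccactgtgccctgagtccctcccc
Col9a1: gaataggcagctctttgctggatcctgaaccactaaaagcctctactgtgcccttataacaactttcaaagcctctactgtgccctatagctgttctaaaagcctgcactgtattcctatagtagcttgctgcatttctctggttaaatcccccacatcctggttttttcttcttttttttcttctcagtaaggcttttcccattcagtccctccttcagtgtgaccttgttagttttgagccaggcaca

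The Chad window held the word TATAAA 28 to 23 bases before the start, and the Col11a2 window held it 143 to 138 bases before the start. Whether either word works as a TATA box was not tested. TATAAA was present in 12.4% of 32851 promoters of the same length. The Cilp2 window held ACAAT 240 to 236 bases before the start, a word found in 27.7% of promoters, and none of the 4 windows held ACAAAG, which was in 16.5%. The Col9a1 window held none of these words. The RefSeq start of Chad and of Col9a1 lies at the first base of the GENCODE gene, and those of Cilp2 and Col11a2 do not. The Cilp2 window, with its ACAAT, lies inside the GENCODE gene and not before it. The Col11a2 window lies before the GENCODE gene.

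Reads per library ran from 1732783 in Sema3b-/- control replicate 1 to 19464892 in WT arthritis replicate 2, with a median of 7279063.5. Sema3b itself had 0 to 3.49 normalized counts in Sema3b-/- arthritis and 0 to 7.20 in Sema3b-/- control libraries, against 23.7 to 66.7 in WT arthritis and 44.2 to 67.5 in WT control libraries, so each library matched its genotype label. Xist and Y-linked genes gave 4 female and 1 male library in Sema3b-/- arthritis, 2 and 2 in Sema3b-/- control, 1 and 4 in WT arthritis, and 4 female libraries in WT control. Mitochondrial genes took 39.4% of reads in WT arthritis replicate 1 and 15.7% to 27.9% in the others. Titles of the control libraries begin with MI, while 7 of the arthritis titles begin with Joint and 3 give an animal number followed by RA, so arthritis and anything that goes with these words cannot be told apart.

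In Sema3b-/- forepaws, arthritis went with lower RNA of 6 of the 10 genes: Col2a1, Col9a1, Col11a2, Chad, Cilp2 and Clec3a. Their log2 fold changes in Sema3b-/- arthritis over Sema3b-/- control ran between -3.27 for Col11a2 and -2.46 for Col9a1. Matn3 had a log2 fold change of -2.42 that missed the threshold, and Acan, Comp and Sox9 did not pass the test either. A call is an adjusted p under 0.05 from limma over all 13809 genes tested. In the same comparison 12.4% of all genes were called, and 5.55% were called lower. The median log2 fold change was -2.46 over the 10 genes and -0.01 over all genes. Fewer chondrocytes in the sample and less of each RNA per chondrocyte cannot be told apart in RNA from whole paws.

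**Figure D1:**
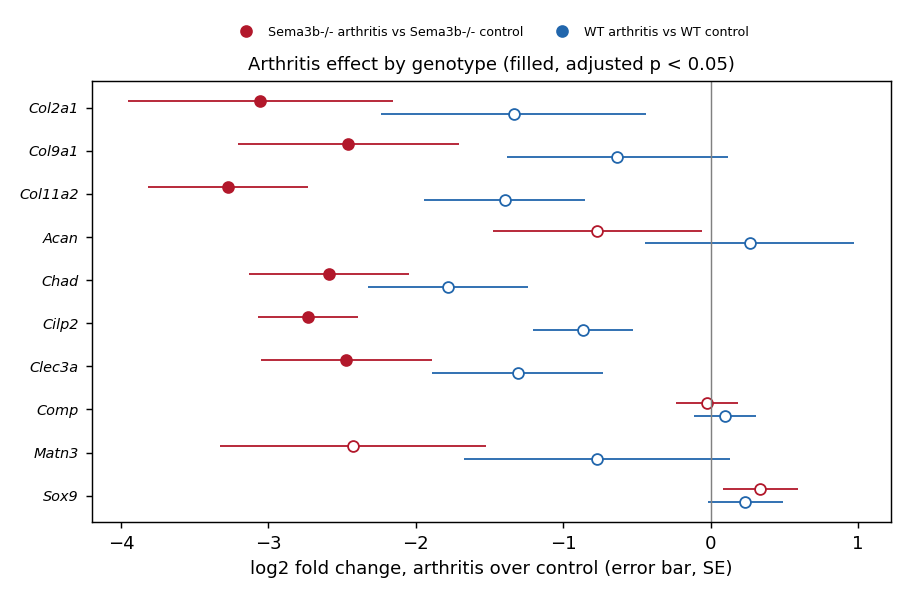
Log2 fold change of the 10 genes with arthritis (x axis, bars are SE), in Sema3b-/- forepaws (red, 5 against 4 libraries) and in WT forepaws (blue, 5 against 4 libraries). Filled points passed an adjusted p of 0.05: 6 genes in Sema3b-/- forepaws, between -3.27 and -2.46, and 0 in WT forepaws.

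The fibrillar collagens had the most negative log2 fold changes over all libraries, though not among female libraries alone. Col11a2 encodes a chain of type XI collagen, which sits inside the type II fibrils (chr17:34039437-34066685, plus strand, 66 exons). Its normalized counts were 7.77, 22.7, 8.04, 9.58 and 14.6 in Sema3b-/- arthritis replicates 1 to 5, against 80.9, 308, 275 and 30.0 in Sema3b-/- control replicates 1 to 4. The groups did not overlap, although 2 of the 4 controls were far above the other pair. The mean was 12.5 ± 6.32 in Sema3b-/- arthritis and 174 ± 139 in Sema3b-/- control (SD, n = 5 and 4), and the log2 fold change was -3.27 (SE 0.54, limma adjusted p 0.00168). The 3 lowest libraries held 6 to 11 reads of Col11a2.

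Col2a1 encodes the chain of type II collagen, the main fibril protein of cartilage (chr15:97975602-98004695, minus strand, 54 exons). It had 1383, 386, 110, 513 and 748 normalized counts in Sema3b-/- arthritis replicates 1 to 5, against 4443, 11558, 8155 and 550 in Sema3b-/- control replicates 1 to 4. One control, replicate 4, lay among the arthritis libraries, so the groups overlapped, while the other three were above all arthritis libraries. The mean was 9.84-fold lower in Sema3b-/- arthritis, with a log2 fold change of -3.05 with an SE of 0.90 (limma adjusted p 0.0388).

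Col9a1 encodes a chain of type IX collagen, the collagen that decorates the fibril surface (chr1:24177610-24252684, plus strand, 38 exons). Its counts were 231, 73.0, 39.2, 74.1 and 117 in Sema3b-/- arthritis replicates 1 to 5, against 494, 1754, 839 and 82.7 in Sema3b-/- control replicates 1 to 4. The same control library, replicate 4, was again among the arthritis values. Its log2 fold change was -2.46 (SE 0.75, limma adjusted p 0.0446). Of all 3 collagens, only Col11a2 stayed called in every other fit that was run. Col2a1 was called in 11 and Col9a1 in 4 of the 18 fits that left out 1 library each.

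Among the matrix proteins, Chad, Cilp2 and Clec3a fell, each with groups that did not overlap. Cilp2 encodes cartilage intermediate layer protein 2 (chr8:69880369-69887687, minus strand, 8 exons). It had 81.6, 40.7, 63.3, 63.6 and 50.7 normalized counts in Sema3b-/- arthritis replicates 1 to 5, against 380, 520, 579 and 211 in Sema3b-/- control replicates 1 to 4. Every arthritis library was below every control. The mean was 60.0 ± 15.4 in Sema3b-/- arthritis and 423 ± 164 in Sema3b-/- control (SD, n = 5 and 4), and the log2 fold change of -2.73 (SE 0.34) had the smallest adjusted p of the 10 genes, 0.000366 by limma.

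Chad encodes chondroadherin, a leucine-rich repeat protein that binds collagen and cells (chr11:94565047-94569127, plus strand, 4 exons). Its counts were 993, 349, 399, 1360 and 465 in Sema3b-/- arthritis replicates 1 to 5, against 4083, 4133, 4894 and 2255 in Sema3b-/- control replicates 1 to 4. The groups were again apart, with a 5.39-fold lower mean in arthritis and a log2 fold change of -2.59 with an SE of 0.54 (limma adjusted p 0.00797). The 3' end of Chad overlaps Acsf2 on the other strand, and the sources used here do not say whether counting used the strand. Acsf2 had at most 20.1 normalized counts in any library.

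Clec3a encodes a C-type lectin made in cartilage (chr8:114418086-114425846, plus strand, 3 exons). It had 58.3, 27.5, 36.2, 76.7 and 60.4 normalized counts in Sema3b-/- arthritis replicates 1 to 5, against 267, 339, 394 and 158 in Sema3b-/- control replicates 1 to 4. These groups did not overlap either. Clec3a had a log2 fold change of -2.47 with an SE of 0.58 (limma adjusted p 0.0134), and the mean was 5.59-fold lower in arthritis. Groups that do not overlap, lower in arthritis, were found for 4 of the 10 genes (Col11a2, Chad, Cilp2 and Clec3a) and for 6.11% of all genes tested.

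**Figure D2:**
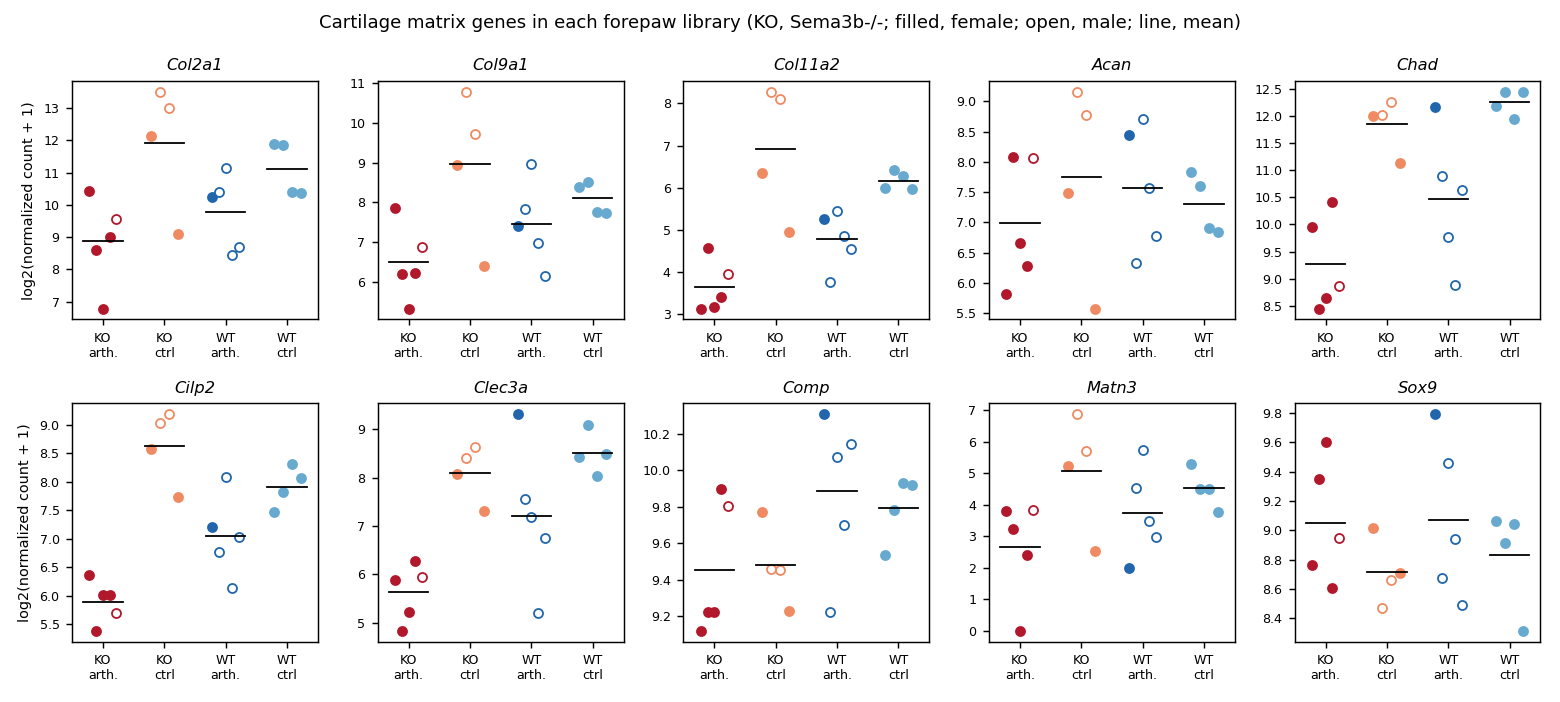
Level of each of the 10 genes in all 18 libraries, as log2 of the normalized count plus 1 (y axis), by group (x axis), with filled points for female libraries, open points for male libraries and a line at the mean of each group. Col11a2, Chad, Cilp2 and Clec3a have every Sema3b-/- arthritis library below every Sema3b-/- control library, while Comp and Sox9 overlap throughout.

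Of the remaining genes, Matn3 had values most like those of the collagens. Matn3 encodes matrilin-3, an adaptor protein of the cartilage matrix (chr12:8947929-8972028, plus strand, 8 exons). It had 13.0, 8.53, 0, 4.36 and 13.2 normalized counts in Sema3b-/- arthritis replicates 1 to 5, against 36.4, 117, 51.1 and 4.80 in Sema3b-/- control replicates 1 to 4. Its log2 fold change was -2.42 (SE 0.90, limma adjusted p 0.0851), at low depth: 0 to 19 reads in the arthritis libraries and 4 to 209 in the controls. Only 2 of the 5 arthritis libraries reached 10 normalized counts. Both count models, edgeR and DESeq2, called Matn3 lower. Of the 10 alternative fits apart from those that left out 1 library, only these 2 did so. Matn3 was called in 1 of the 18 fits that left out 1 library each.

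Acan encodes aggrecan, the proteoglycan of cartilage (chr7:79053483-79115099, plus strand, 17 exons). Its counts were 55.7, 271, 101, 76.7 and 265 in Sema3b-/- arthritis replicates 1 to 5, against 178, 570, 439 and 46.8 in Sema3b-/- control replicates 1 to 4. The lowest library of all was a control, replicate 4, and the groups overlapped widely. The log2 fold change of -0.77 (SE 0.71) was within that scatter (limma adjusted p 0.509).

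Comp encodes cartilage oligomeric matrix protein, which tendon and ligament also make (chr8:70373558-70382066, plus strand, 19 exons). It averaged 718 ± 188 normalized counts in Sema3b-/- arthritis and 719 ± 114 in Sema3b-/- control (SD, n = 5 and 4), with 555 to 951 and 598 to 874 across libraries. Sox9, the chondrocyte regulator (chr11:112782224-112787760, plus strand, 3 exons), averaged 548 ± 161 in Sema3b-/- arthritis and 423 ± 69.0 in Sema3b-/- control, with 389 to 775 and 353 to 518 across libraries. Neither differed beyond its scatter: the log2 fold change was -0.03 for Comp (SE 0.21, limma adjusted p 0.951) and 0.34 for Sox9 (SE 0.26, limma adjusted p 0.406). The sign for Comp turned in several of the other fits, and that for Sox9 stayed positive in all that were run. The library with no Matn3 read, Sema3b-/- arthritis replicate 3, was the highest of its group for Sox9.

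In WT forepaws none of the 10 genes passed the test with arthritis, and 7 of the 10 log2 fold changes were negative. In this comparison 4.21% of all genes were called, and 1.58% were called lower. Neither edgeR nor DESeq2 called any of the 10. By limma, 4 of the 10 genes (Chad, Cilp2, Col11a2 and Clec3a) had an unadjusted p under 0.05, as did 21.2% of all genes. The median log2 fold change of the 10 genes was -0.82, beside -0.02 over all genes.

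Chad had 4607, 1887, 867, 472 and 1595 normalized counts in WT arthritis replicates 1 to 5, against 4652, 5560, 3926 and 5550 in WT control replicates 1 to 4. Replicate 1 lay among the controls, and the other four were all below them. The log2 fold change was -1.78 (SE 0.54, limma adjusted p 0.0765). Without WT arthritis replicate 1, the library with 39.4% mitochondrial reads, it was -2.21 with a limma adjusted p of 0.0134.

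Clec3a had the same library on top, with 633, 186, 144, 35.7 and 107 normalized counts in WT arthritis replicates 1 to 5, against 345, 539, 260 and 356 in WT control replicates 1 to 4. Its replicate 1 value was the highest of all 18 libraries. The log2 fold change was -1.31 (SE 0.58, limma adjusted p 0.205), and without that library it was -1.83 with a limma adjusted p of 0.0250. Leaving out the one library thus moved the number of the 10 genes called in WT arthritis to 2. None of the 10 was called in WT arthritis when any other single library was left out. Across these 18 fits, 149 to 1111 of all genes were called in WT arthritis.

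Cilp2 had 146, 108, 270, 69.7 and 129 normalized counts in WT arthritis replicates 1 to 5, against 176, 225, 315 and 265 in WT control replicates 1 to 4. Here replicate 3, and not replicate 1, lay among the controls. This gave a log2 fold change of -0.87 with an SE of 0.34 (limma adjusted p 0.150).

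Col11a2 had 37.0, 12.6, 42.5, 28.1 and 22.2 normalized counts in WT arthritis replicates 1 to 5, against 63.0, 84.8, 76.9 and 61.4 in WT control replicates 1 to 4. It was the only one of the 10 genes whose WT groups did not overlap, a separation in the lower direction that 4.71% of all genes showed. Its log2 fold change was -1.40 (SE 0.54, limma adjusted p 0.149).

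Col2a1 had 1215, 1357, 2271, 345 and 411 normalized counts in WT arthritis, against 3763, 3696, 1334 and 1318 in WT control. Of the 4 controls, 2 lay within the range of the arthritis libraries, and the log2 fold change was -1.33 (SE 0.90, limma adjusted p 0.405). The other WT log2 fold changes were -0.63 for Col9a1, -0.77 for Matn3, 0.27 for Acan, 0.10 for Comp and 0.24 for Sox9, with limma adjusted p between 0.618 and 0.859. All WT controls were female and 4 of the 5 WT arthritis libraries male, and with sex as a term in the fit the WT log2 fold changes were -2.21 for Col2a1, -1.56 for Col9a1, -2.13 for Col11a2, -2.42 for Matn3, -0.55 for Acan and 0.58 for Sox9, none of them called. The median of the 10 genes in WT arthritis was then -1.18. Averaged over both genotypes, the arthritis effect was called for the same 6 genes as in Sema3b-/- forepaws, with log2 fold changes between -2.34 for Col11a2 and -1.55 for Col9a1. Col9a1 was near the threshold (limma adjusted p 0.0467) and was called in only 3 of the 18 fits that left out 1 library each. In that average 23.5% of all genes were called, and 10.9% were called lower.

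Whether the arthritis effect differed between the genotypes was tested as an interaction, and none of the 10 genes was called by limma or by edgeR. No gene of all 13809 was called by limma (0%), while 2 of the 10 genes and 4.8% of all genes had an unadjusted p under 0.05. The smallest p among the 10 belonged to Cilp2, whose arthritis effect in Sema3b-/- minus that in WT was -1.87 on the log2 scale (SE 0.48, limma adjusted p 0.672). DESeq2 called that difference for Cilp2 (-2.06, adjusted p 0.0425) and for 6 genes in all. Calls in 1 genotype and not in the other therefore do not show that the genotypes differ.

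Among arthritic forepaws, all 10 genes had a lower fitted level in Sema3b-/- than in WT libraries, with a median log2 fold change of -1.03, and none passed the test by limma. With sex as a term the median was -0.37, and Acan (0.03) and Matn3 (0.14) were above 0; 4 of the 5 Sema3b-/- and 1 of the 5 WT arthritis libraries were female. Only 0.0217% of all genes were called in that comparison, while 5 of the 10 genes and 8.97% of all genes had an unadjusted p under 0.05. Clec3a averaged 51.8 ± 19.8 normalized counts in Sema3b-/- arthritis and 221 ± 237 in WT arthritis (SD, n = 5 each), a log2 fold change of -1.57 with an SE of 0.55 (limma adjusted p 0.419). Cilp2 averaged 60.0 ± 15.4 in Sema3b-/- arthritis and 145 ± 75.8 in WT arthritis, a log2 fold change of -1.15 with an SE of 0.32 (limma adjusted p 0.301). DESeq2 called both lower, with adjusted p of 0.0152 for Clec3a and 0.0304 for Cilp2. No gene of the 10 had groups that did not overlap here, beside 1.77% of all genes and 0.999% lower in Sema3b-/- arthritis.

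Among control forepaws, no gene of the 10 was called between Sema3b-/- and WT by limma, edgeR or DESeq2, and none had an unadjusted p under 0.05, beside 0.0145% of all genes called and 5.87% under that p. Their log2 fold changes ran between -0.40 for Clec3a and 0.86 for Col9a1. With the 2 male libraries in, the Sema3b-/- control mean was above the WT control mean for Col2a1 (6177 ± 4745 and 2528 ± 1388), Col9a1 (793 ± 712 and 281 ± 78.7) and Col11a2 (174 ± 139 and 71.5 ± 11.3; SD, n = 4 each). Without those 2 libraries the log2 fold changes turned to -0.51 for Col2a1, -0.43 for Col9a1 and -0.51 for Col11a2, and the median of the 10 genes was -0.51, against 0.51 with them. The spread of the Sema3b-/- controls took in the whole WT range for each of these collagens. For none of the 10 genes were these control groups apart, as they were for 4.2% of all genes, with 2.13% lower in Sema3b-/-.

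By group, the order of mean levels was the same for Col2a1, Col9a1, Col11a2, Cilp2 and Matn3: highest in Sema3b-/- control, then WT control, WT arthritis and Sema3b-/- arthritis. In that order no neighbouring pair differed by the limma test. Chad and Clec3a had their highest mean in WT control (4922 ± 789 and 375 ± 117, SD, n = 4), followed by Sema3b-/- control, WT arthritis and Sema3b-/- arthritis, and again no neighbouring pair that was tested passed. For Sox9, both arthritis means stood above both control means, within the scatter of the libraries.

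**Figure D3:**
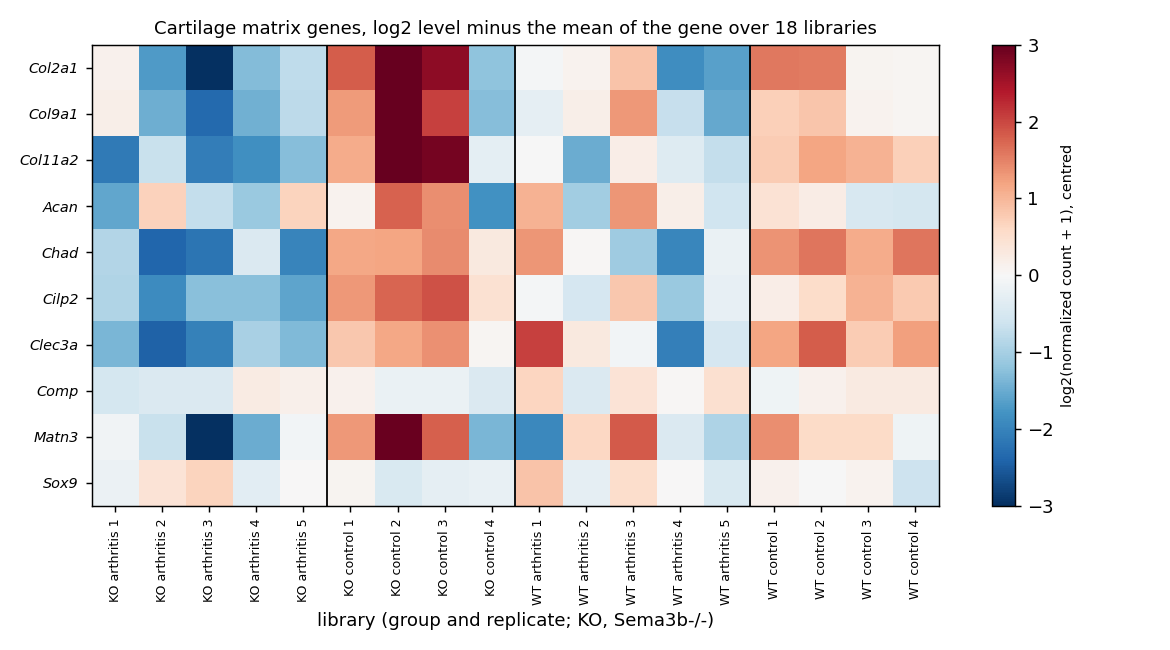
Centred log2 level of the 10 genes (rows) in the 18 libraries (columns, grouped), as the difference from the mean of each gene, with red above and blue below that mean and the colours held at 3 units either side. In Sema3b-/- control, replicates 2 and 3 hold the highest values of 8 genes and replicate 4 the lowest values of 9.

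Much of the spread lay between the Sema3b-/- controls. Replicate 4 (female) was the lowest of its group for 9 of the 10 genes, and replicates 2 and 3 (both male) were between them the highest for 8. Male minus female, these controls differed by 2.63 for Col2a1, 2.58 for Col9a1, 2.54 for Col11a2, 2.44 for Acan and 2.41 for Matn3 on the log2 scale, and by 0.95 for Cilp2, 0.83 for Clec3a and 0.57 for Chad (2 libraries each). In WT control, where all libraries were female, replicate 4 was the lowest for 6 genes. In WT arthritis, replicate 3 was the highest for 6 genes.

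Within female libraries alone, Sema3b-/- arthritis minus Sema3b-/- control (4 and 2 libraries) was -2.08 for Col11a2, -2.20 for Chad, -2.21 for Cilp2, -2.14 for Clec3a, -1.91 for Col2a1 and -1.26 for Col9a1 on the log2 scale, and 0.18 for Acan. In WT, only 1 arthritis library was female and no control was male. With sex as a term in the fit, 4 of the 10 genes were called in Sema3b-/- arthritis (Chad, Cilp2, Clec3a and Col11a2). Without both male Sema3b-/- controls, 2 were called (Cilp2 and Col11a2), and the median log2 fold change of the 10 genes was -1.48. Chad then had a log2 fold change of -2.30 (limma adjusted p 0.0651) and Clec3a one of -2.06 (limma adjusted p 0.102).

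Summed over the 10 genes, normalized counts were 2128 to 3809 in Sema3b-/- arthritis and 4354 to 20356 in Sema3b-/- control, against 2593 to 9307 in WT arthritis and 7772 to 12042 in WT control. In the lowest of the Sema3b-/- controls, replicate 4, Chad alone gave 2255 of the 4354. The Sema3b-/- groups overlapped for Col2a1, Col9a1, Acan, Comp, Matn3 and Sox9, so the gap between the sums is not shared by all 10 genes. Marker genes of other tissues of the paw differed too. The 8 genes of the osteoblast and osteocyte list summed to 19487 to 51680 in Sema3b-/- arthritis and 28041 to 333712 in Sema3b-/- control, against 18944 to 93740 in WT arthritis and 73473 to 80815 in WT control. In Sema3b-/- control, replicates 2 and 3, the libraries with the most Col2a1, held 287836 and 333712, and replicate 4, with the least, held 28041. Most of this sum was Col1a1. It averaged 168617 where the list averaged 178294 in Sema3b-/- control, and 70139 where the list averaged 77112 in WT control. The sum therefore says little of the other genes of the list. Of the 8, 4 were called lower in Sema3b-/- arthritis (Alpl, Phex, Sp7 and Bglap) and 1 in WT arthritis (Bglap), and Col1a1 was called in neither. Among all genes 5.55% and 1.58% were called lower in these comparisons. In the mean of both genotypes 7 of the 8 were called lower, beside 10.9% of all genes. None of the 8 was at 0 in any library. The part of bone in the fall of the cartilage genes was not tested.

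Skeletal muscle and epidermis lists also had negative median log2 fold changes with arthritis in both genotypes. None of their 8 and 7 genes was called within either genotype, and none was at 0. In the mean of both genotypes 3 muscle genes (Acta1, Myh4 and Mylpf) and 3 epidermal genes (Krt10, Lor and Krt1) were called lower. The muscle sum was 10233 to 90078 in Sema3b-/- arthritis and 91898 to 256826 in Sema3b-/- control, against 9374 to 165262 in WT arthritis and 94960 to 123643 in WT control. The highest muscle sum of all and the highest epidermal sum of all were in Sema3b-/- control replicate 4. That library was the lowest of its own group for 9 of the 10 cartilage genes, and the lowest of all libraries for Acan alone. Epidermal genes summed to 2921 to 93203 in Sema3b-/- arthritis and 63455 to 333229 in Sema3b-/- control, against 2793 to 110454 in WT arthritis and 70003 to 113086 in WT control. Whether these shifts in tissue share set the cartilage values was not tested.

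The tendon and ligament list, tissues in which Comp is also known to be active, had 1 of its 7 genes called lower in each genotype, Tnxb (tenascin-X). Among all genes 5.55% and 1.58% were called lower there. Tnxb had log2 fold changes of -1.44 in Sema3b-/- arthritis (limma adjusted p 0.0228) and -1.43 in WT arthritis (limma adjusted p 0.0452). The sum of this list was 3210 to 8335 normalized counts in Sema3b-/- arthritis and 4019 to 6957 in Sema3b-/- control, against 3517 to 14335 in WT arthritis and 4274 to 5663 in WT control. Of 6 macrophage genes, 4 were called higher in Sema3b-/- arthritis and 3 in WT arthritis. Of 6 neutrophil genes, 1 (Cxcr2) was called higher in each genotype. Among all 13809 genes tested, 944 were called higher in Sema3b-/- arthritis and 364 in WT arthritis.

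**Figure D4:**
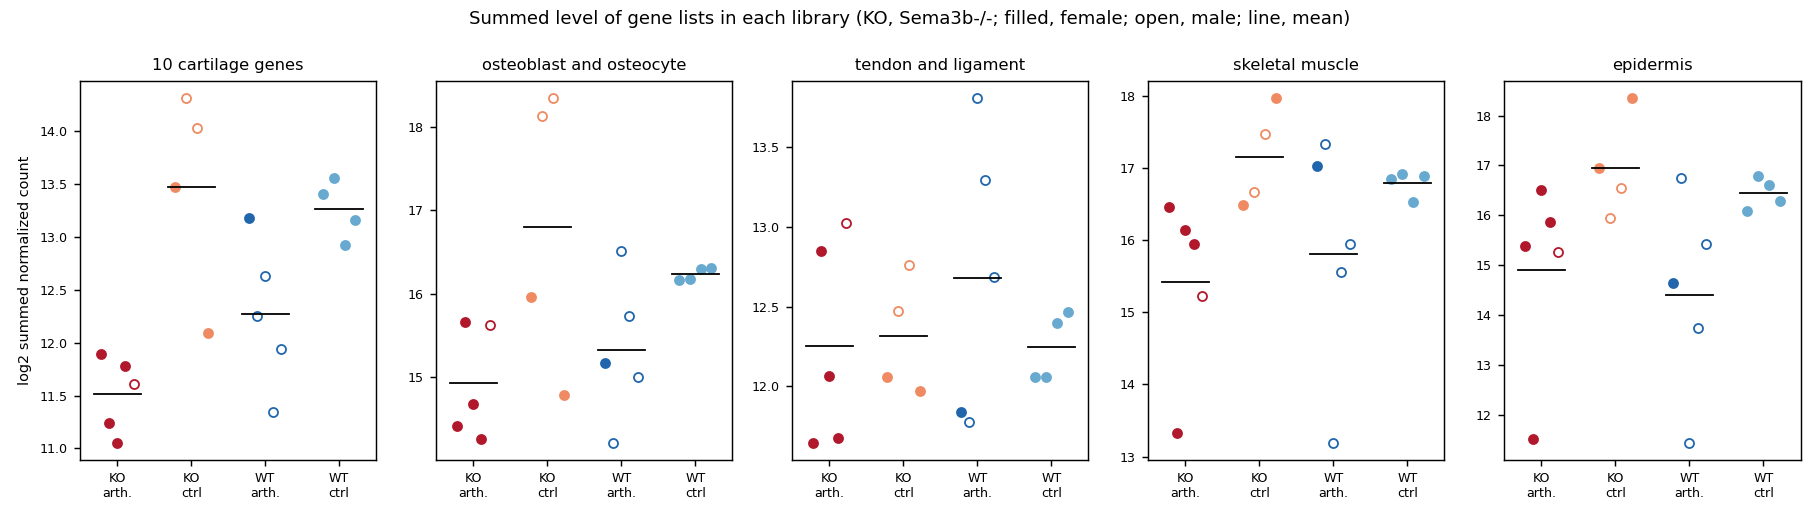
Log2 of the summed normalized count (y axis) of the 10 cartilage genes and of 4 lists of other tissues in each library, by group (x axis), with filled points for female libraries, open points for male libraries and a line at the mean of the log2 values. The cartilage sum of each Sema3b-/- arthritis library (2128 to 3809) is below that of each Sema3b-/- control library (4354 to 20356), and the osteoblast sum of the same controls spans 28041 to 333712. In the control with the lowest cartilage sum, replicate 4, Chad gave 2255 of the 4354. The osteoblast sum was mostly Col1a1.

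A wider list of 28 other cartilage genes had 27 that passed the filter, and 2 of these were called lower in Sema3b-/- arthritis, 0 in WT arthritis, counts near the 5.55% and 1.58% of all genes called lower. Both called genes belong to growth plate chondrocytes. Col10a1 encodes type X collagen, the collagen of hypertrophic chondrocytes, and averaged 82.6 ± 57.1 normalized counts in Sema3b-/- arthritis and 1992 ± 2052 in Sema3b-/- control (SD, n = 5 and 4), with a log2 fold change of -3.95 with an SE of 0.98 (limma adjusted p 0.0187). Ihh encodes Indian hedgehog, a signal of prehypertrophic chondrocytes, and averaged 4.25 ± 4.53 in Sema3b-/- arthritis and 42.3 ± 38.1 in Sema3b-/- control, with a log2 fold change of -2.82 with an SE of 0.84 (limma adjusted p 0.0367). For both genes the Sema3b-/- groups overlapped. The highest arthritis values were 170 for Col10a1 and 11.7 for Ihh, and the lowest control values 130 and 3.60. Ihh had 0 to 9 reads in the Sema3b-/- arthritis libraries and 3 to 159 in the Sema3b-/- controls. In WT arthritis the log2 fold changes were -1.61 for Col10a1 (limma adjusted p 0.360) and -1.50 for Ihh (limma adjusted p 0.313).

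The partner chains of the called collagens gave values below the threshold. Log2 fold changes in Sema3b-/- arthritis were -2.04 for Col9a2 (limma adjusted p 0.176), -2.50 for Col9a3 (limma adjusted p 0.0817) and -1.42 for Col11a1 (limma adjusted p 0.186). Hapln1, whose link protein ties aggrecan to hyaluronan, had -1.54 (limma adjusted p 0.177), and Sox5 and Sox6, the partners of Sox9, had -0.31 and -0.78 (limma adjusted p 0.590 and 0.106). The median log2 fold change of the 27 genes was -0.78 in Sema3b-/- arthritis and -0.16 in WT arthritis, beside -0.01 and -0.02 over all genes. Prg4, which encodes the lubricant lubricin of the joint surface and of the synovial lining, had 0.17 in Sema3b-/- arthritis (limma adjusted p 0.828) and -0.60 in WT arthritis (limma adjusted p 0.440).

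**Figure D5:**
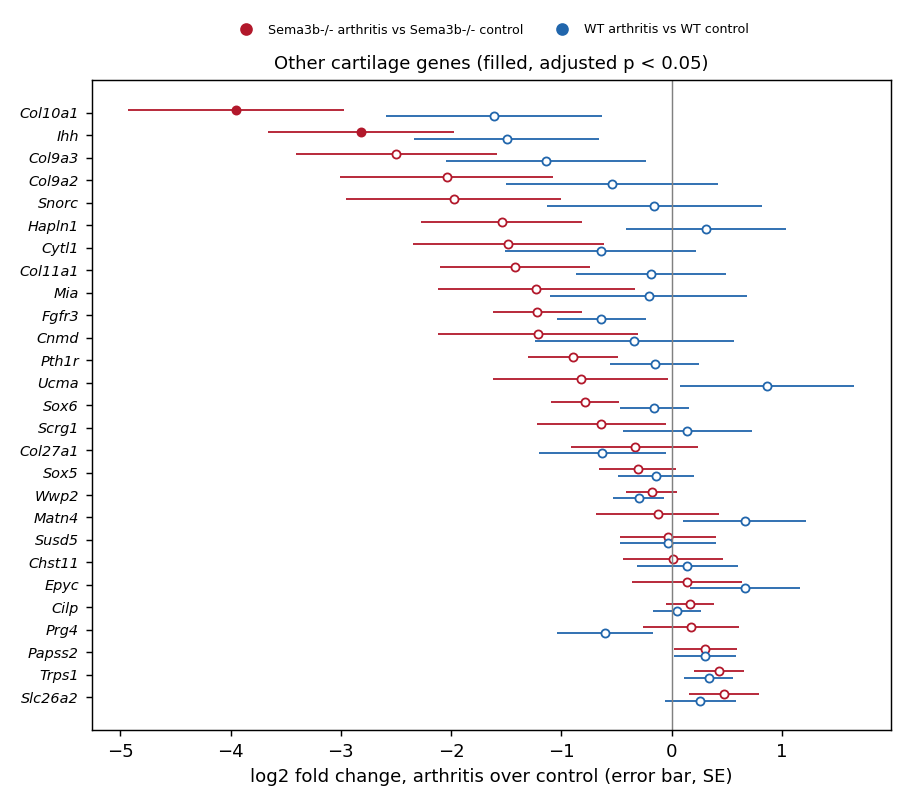
Log2 fold change with arthritis (x axis, bars are SE) of the 27 other cartilage genes that passed the filter, in Sema3b-/- forepaws (red) and WT forepaws (blue), ordered by the Sema3b-/- value. Filled points passed an adjusted p of 0.05: Col10a1 at -3.95 and Ihh at -2.82, both in Sema3b-/- forepaws.

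Of 10 genes for enzymes that cut cartilage matrix and their inhibitors, 3 were called higher in Sema3b-/- arthritis and 2 in WT arthritis. Among all 13809 genes tested, 944 and 364 were called higher in these comparisons. Mmp3, which encodes stromelysin-1, a protease that cuts aggrecan and several collagens, averaged 2402 ± 1124 normalized counts in Sema3b-/- arthritis and 54.6 ± 13.0 in Sema3b-/- control (log2 fold change 5.33, SE 0.72, limma adjusted p 0.000903). It averaged 1534 ± 1213 in WT arthritis and 122 ± 27.9 in WT control (log2 fold change 2.96, SE 0.72, limma adjusted p 0.0327). Adamts1 rose in both genotypes, by 1.10 in Sema3b-/- arthritis (limma adjusted p 0.0183) and by 1.21 in WT arthritis (limma adjusted p 0.0243) on the log2 scale. Timp1, an inhibitor of matrix proteases, rose by 2.83 in Sema3b-/- arthritis (limma adjusted p 0.00892), and had 1.73 in WT arthritis (limma adjusted p 0.119). The aggrecanase genes Adamts4 and Adamts5 and the collagenase gene Mmp13 were not called within either genotype. In the mean of both genotypes 4 of these 10 protease and inhibitor genes were called higher, Adamts4 among them, and 1 lower (Timp3). Among all 13809 genes tested, 1737 were called higher and 1510 lower in that mean. Adamts5 and Mmp13 were not called there. Adamts4 had 4 to 15 reads in WT control libraries and 0 to 85 in Sema3b-/- control libraries.

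Within the 10 genes, some pairs differed little in centred log2 level across libraries. The root mean square difference between centred log2 levels over the 18 libraries was 0.42 between Chad and Clec3a, 0.49 between Comp and Sox9, and 0.53 between Col2a1 and Col9a1. By this measure Matn3 was closest to Col9a1 (0.68), Col11a2 to Cilp2 (0.74) and Acan to Comp (0.97). The measure is also small for genes that vary little, as Comp and Sox9 did. The values for Comp with Sox9 and for Acan with Comp therefore do not show levels that moved together. Among the genes outside the set closest to its mean over the 18 libraries were Alpl (0.34), Phex (0.40), Ptprd (0.43) and Slc36a2 (0.44), where the median over 6718 genes compared was 1.02. Alpl encodes the alkaline phosphatase of mineralising cells, and Phex an endopeptidase of osteoblasts and osteocytes. These likenesses are descriptions over libraries that share groups, sex and depth, with no test.

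The authors' deposited table gave adjusted p-values of its own. In the authors' deposited table the same number of the 10 genes, 6, passed 0.05 in Sema3b-/- arthritis, and 0 passed in WT arthritis and in each of the genotype comparisons. Of all genes there, 973 passed in Sema3b-/- arthritis and 481 in WT arthritis. Between genotypes, 0 genes of all passed among controls and 2 among arthritic forepaws. The log2 fold changes of the authors' deposited table in Sema3b-/- arthritis were -3.79 for Col11a2, -3.30 for Col2a1, -2.90 for Col9a1, -2.82 for Cilp2, -2.48 for Clec3a and -2.43 for Chad, the 6 that passed there. For Matn3 the authors' deposited table gave -2.76 with an adjusted p of 0.0602.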

How the data were processed

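Forepaw RNA was read by CEL-seq with paired ends, per the labels. The submitters' processing notes name BWA, the build mm10 and DESeq2 1.32; the sources used here name no counting tool and say nothing of molecular barcodes. The table deposited by the authors holds a signal per gene and library, each a read count over the size factor of its library (normalized count), for 18585 genes and 18 libraries, with the authors' log2 fold changes, p-values and adjusted p-values for their own comparisons. A score per gene in those columns was not used. Whole reads were recovered from the deposited signal (100% of values lay within 0.02 of a whole read) and summed to 1732783 to 19464892 reads per library. Where no read was seen, up to 3 reads remain possible, or 12.1 normalized counts in the shallowest library (counting error only).

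Since the file holds normalized counts, limma 3.58.1 (trend, robust empirical Bayes, R 4.3.3) was run on log2 of the value plus 1, with 4 group means over all 18 libraries. Genes with at least 10 normalized counts in at least 4 libraries were tested (13809). Genes were called at 0.05 after Benjamini-Hochberg adjustment over all of them. Fold changes on this scale understate the change of low genes. Levels carry the SD over libraries, and fold changes the SE of the fit. Libraries hold different animal numbers in their titles, but separate animals are not stated outright, so the p-values cover the spread among the libraries, which may be technical.

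The 10 genes, the lists of other genes and the comparisons were chosen with earlier results of these data known. Named beyond the 10 were the called genes of the wider cartilage list, a few genes of the other lists, and the 5 genes closest to the mean of the 10, of which 1 is not reported here. Cnmd, Snorc and Adgre1 were read under older symbols. One column that ends in Ct was taken as Sema3b-/- arthritis replicate 5, as its title and treatment label have it. Titles of Sema3b-/- control replicates 3 and 4 carry the same inner name, and the second was numbered 4. Alternatives were a pseudocount of 5, no filter, TMM scaling, totals without the 37 mitochondrial genes, replicate numbers as a block, sex (read from Xist and Y-linked genes) as a term, edgeR 4.0.16 and DESeq2 1.42.0 on the recovered reads, and each library left out. Title words as a term and both male Sema3b-/- controls left out were added after seeing the data. Gene coordinates are from GENCODE on mm10, 1-based, and promoters from RefSeq. The fit was tested on simulated data.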

Additional observations from a re-analysis of the deposited data

Results flagged for a closer look

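Each of the 10 genes was looked at within each of the 4 groups for a library far from the rest, 40 groups in all, of which chance would mark about 1 in 20. The one library marked was WT arthritis replicate 1 for Clec3a, at 633 normalized counts (428 reads), where the other four WT arthritis libraries had 35.7 to 186. The gap to the nearest library was 0.748 of the range of the group. The same library had 39.4% mitochondrial reads, was the only female of its group, and was also the highest of its group for Chad, Comp and Sox9 and the lowest for Matn3. The part of these properties in its values was not tested.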

How the results depend on the processing

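Under the alternatives run in Sema3b-/- arthritis against Sema3b-/- control, 2 of the 10 genes were called without both male Sema3b-/- control libraries and 4 to 7 of them with 1 library left out, against 6. All genes called there were 1710, and 1020 with a replicate block, 861 with the title word as a term, 1045 without both male controls and 978 to 1913 with 1 library left out. In WT arthritis 582 genes were called, and 196 with the replicate block, 133 with sex as a term, 380 with the title word, 1280 by DESeq2 and 149 to 1111 with 1 library left out, with 0 to 2 of the 10 genes among them. The mean of both genotypes gave 3247 calls, 2125 with the title word and 2580 to 3767 with 1 library left out (5 to 7 of the 10 genes). Between controls 2 genes were called, and 1 without the filter, 4 without mitochondrial totals, 1 with the block, 0 with sex, 4 by DESeq2, 1 without both male controls and 0 to 3 with 1 library left out. Between arthritic groups 3 were called, and 96 by DESeq2 (2 of the 10 genes) and 2 to 6 with 1 library left out. For the interaction limma called 0 genes, also with 1 library left out, and DESeq2 6 (1 of the 10 genes).

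Signs that turned all belonged to values that were not called. In Sema3b-/- arthritis, Acan was 0.45 without both male controls, and Comp was 0.095 without mitochondrial totals, 0.037 with the title word, 0.019 by edgeR and 0.0055 by DESeq2 (-0.14 to 0.0721 with 1 library left out). In WT arthritis, Acan was -0.55 with sex as a term (-0.0190 to 0.57 with 1 library left out), and Comp was -0.0023 without mitochondrial totals (-0.0078 to 0.26 with 1 library left out). In the mean of both genotypes, Acan was 0.36 without both male controls, and Comp was -0.0402 with the replicate block (-0.0199 to 0.12 with 1 library left out). Between controls, without both male libraries, Col2a1 was -0.51, Col9a1 -0.43, Col11a2 -0.51, Acan -0.77, Matn3 -0.64 and Sox9 0.0303. With sex as a term there, Acan was -0.0556, Matn3 -0.47 and Sox9 0.10, and with 1 library left out Acan ran from -0.0172 to 1.18 and Matn3 from -0.0361 to 1.41. Between arthritic groups, with sex as a term, Acan was 0.0279 and Matn3 0.14, and Sox9 was 0.0513 without mitochondrial totals and 0.0395 with the title word (-0.16 to 0.16 with 1 library left out). For the interaction, with sex as a term, Acan was 0.0835, Matn3 0.61 and Sox9 -0.38. Without both male controls, the interaction was 0.19 for Acan and -0.0486 for Sox9 (-0.0444 to 0.28 with 1 library left out), and Comp was 0.10 without mitochondrial totals. The causes were not tested.

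Replicate numbers did not pair libraries: same-numbered libraries of different groups correlated between -0.658 and 0.414 in their deviations, 7 of 25 pairs were over 0.1, and 3 of 18 libraries were closest to their own number. With the replicate block, 4 of the 10 genes were called in Sema3b-/- arthritis. Depth limits Matn3 and Col11a2 most, with 0 to 24 reads in the Sema3b-/- arthritis libraries.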
